A study of Homo sapiens with 17 samples.

Results

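Expression of 10 genes for chemokines and interleukin 1 was followed in squamous cancer cells, namely CXCL14, CX3CL1, CXCL1, CXCL2, CXCL3, IL8 (CXCL8 in current nomenclature), CXCL16, CCL20, IL1A and IL1B. All 10 were found by symbol among the 57820 genes listed for each of 17 RNA-seq libraries. The set was chosen on measured values of these libraries, since CXCL14 and CX3CL1 were low after loss of SOX2, the gene of a squamous lineage transcription factor. Values of the 10 genes after SOX2 knockout, and of CXCL14 and CX3CL1 after repression of the SOX2 enhancer e1, are therefore given as a description, with no test.

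Of the 17 libraries, 13 came from KYSE140, an esophageal squamous cancer line, and 4 from SKMES1, a lung squamous cancer line. KYSE140 cells stably expressing a CRISPRi construct, a Cas9 without nuclease activity made to repress, carried sg-e1#1 or sg-e1#2 against the enhancer e1 (2 libraries) or the non-targeting sg-NC#1 or sg-NC#2 (2 libraries). KYSE140 cells expressing active Cas9 carried sg-SOX2#2, sg-SOX2#3 or sg-SOX2#4 against the SOX2 coding region (3 libraries) or the control guides sg-AAVS1 or sg-Chr2.2 (2 libraries). These were antibiotic-selected pools, not clones, so a pool can still hold cells with an intact SOX2 copy. Further KYSE140 cells received 0.5 µM ARV-771, a PROTAC that degrades proteins of the BET family, for 6 h (2 cultures, A and B), or DMSO for 6 h (2 cultures). SKMES1 cells expressing dCas9-VP64 (CRISPRa) carried sg-e1#1 or sg-e1#3 (2 libraries) or sg-NC#1 or sg-NC#2 (2 libraries), with further activator domains recruited by the guide.

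Chemokines are small secreted proteins that bind G protein-coupled receptors and direct the movement of leukocytes. Epithelia make several of them: CXCL14 is produced at rest by many squamous epithelia, whereas CXCL1, CXCL2, CXCL3 and IL8 attract neutrophils through CXCR2 and are classical targets of NF-kB. CX3CL1 and CXCL16 are made as membrane proteins on a mucin stalk and are released by the sheddases ADAM10 and ADAM17. IL1A and IL1B are cytokines that signal through one shared receptor to NF-kB, and keratinocytes are known to store IL1A.

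Levels are given as TPM, a share of transcripts corrected for gene length, and differences as log2 fold changes fitted to counts with trimmed mean of M values (TMM) scaling, with the standard error (SE). A gene was called when the edgeR quasi-likelihood test gave an adjusted p (Benjamini-Hochberg) under 0.05 and its fold change over 1.5. SOX2 itself was lower in every library with e1 guides (120 and 128 TPM) than in the CRISPRi controls (365 and 379 TPM). Knockout pools held 103 to 221 TPM of SOX2 against 397 and 428 TPM in their controls, and ARV-771 cultures 9.8 and 10.5 TPM against 223 and 236 TPM in DMSO. The SOX2 guides cut the coding region, so RNA counted in the knockout pools may not encode an intact protein. SKMES1 controls held 1.53 and 1.68 TPM of SOX2, and activation by e1 guides gave 224 and 316 TPM. Totals ran from 7260730 to 15781463 counts per library, and 3 counts was taken as the lowest measurable level. The sg-NC#1 library of SKMES1 stood apart from sg-NC#2, their counts giving a chi-square of 28.8 per degree of freedom, against 2.19 for the closest pair of replicates, the ARV-771 cultures. The summed TPM of 7 squamous markers ran from 5750 to 26518 in KYSE140 but only from 33.9 to 171 in SKMES1. In the 4 SKMES1 libraries KRT5 did not exceed 1.26 TPM, TP63 3.79 TPM, CDH1 4.74 TPM and DSG3 0.1 TPM, so these markers were low there. EPCAM stood at 29.4 to 41.7 TPM in all 4, while KRT14 reached 118 TPM in sg-NC#2 alone and KRT6A 19.2 TPM with sg-e1#3 alone.

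In the control libraries of KYSE140, CXCL14 held the highest TPM of the 10 genes, followed by CXCL1, then by CX3CL1 and CXCL16 in either order. CXCL14 averaged 3695 ± 74.1 TPM in DMSO, 2661 ± 172 TPM in the CRISPRi controls and 907 ± 6.94 TPM in the CRISPR controls (SD, n = 2 each). CXCL1 averaged 439 ± 23.4 TPM in the CRISPR controls, 228 ± 5.11 TPM in the CRISPRi controls and 135 ± 3.78 TPM in DMSO (SD, n = 2 each). These 3 control groups did not overlap for either gene and stood in opposite order. They are the controls of separate comparisons. The CRISPRi and CRISPR controls differed in the Cas9 construct, and none is stated for the DMSO cultures. No test was run between these groups. IL8, CXCL3, CXCL2, CCL20, IL1A and IL1B were lower, from 0 to 13 TPM in these 6 control libraries.

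**Figure D1:**
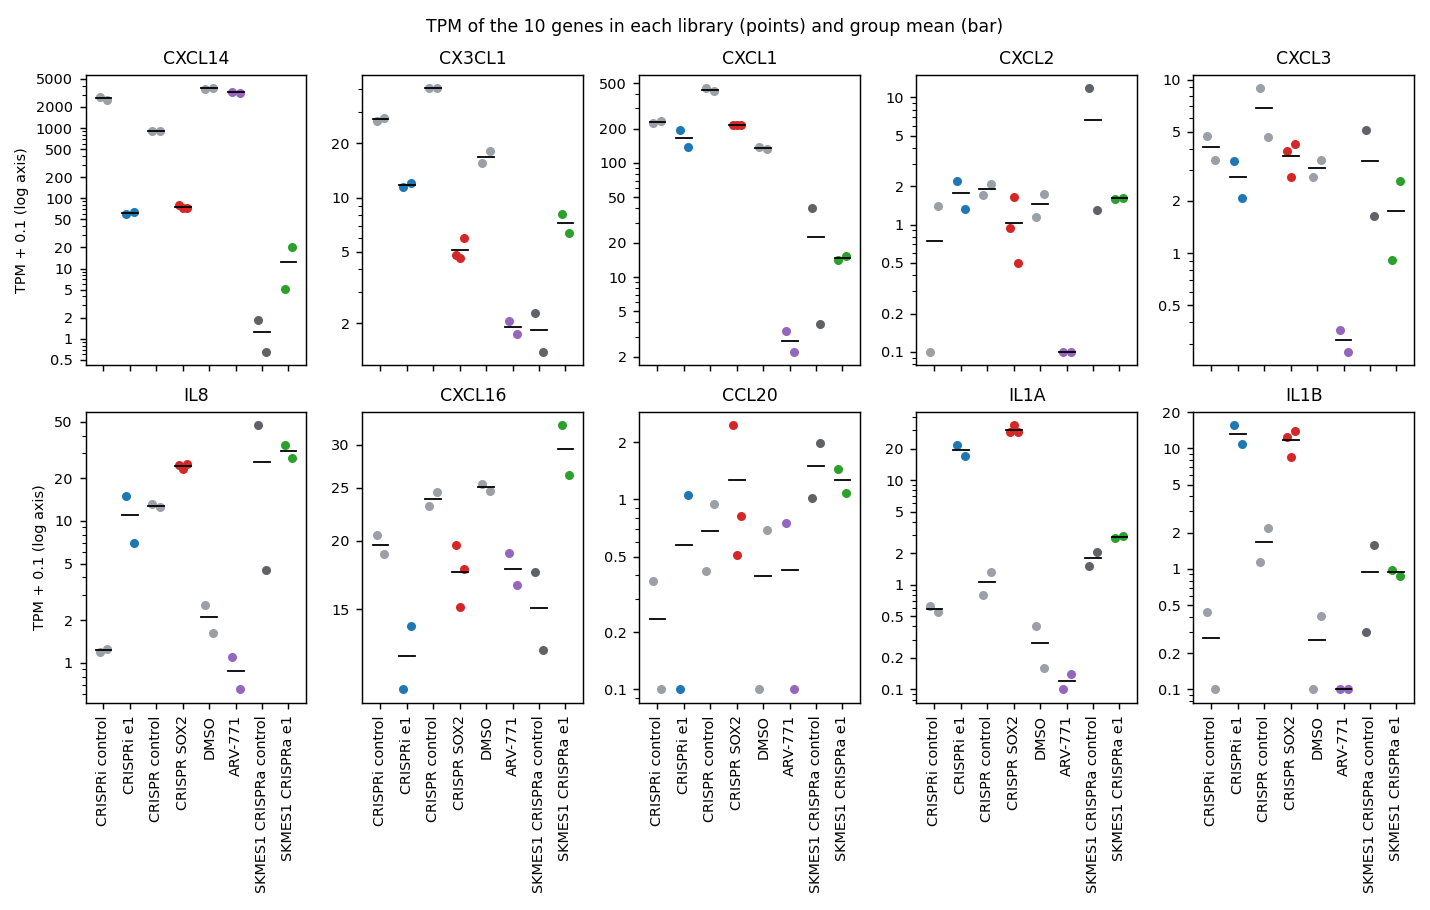
TPM plus 0.1 on a log axis (y) for the 10 genes in the 8 groups (x), with each point a library and each bar the mean of a group; the y range differs between panels. CXCL14 dropped from 902 TPM or more to between 58.6 and 80.7 TPM with e1 or SOX2 guides, IL1A stood at 16.7 TPM or more only in those 5 libraries, and CXCL1 stood lowest with ARV-771.

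Repression of e1 asked which genes follow the enhancer that drives SOX2. Among the 8 members with enough counts to be tested, 6 were called, 3 higher (IL8, IL1A and IL1B) and 3 lower (CXCL14, CX3CL1 and CXCL16). Of all 13792 genes tested, 20% were called, 9.3% higher and 10.7% lower. CXCL2 and CCL20 did not pass the filter on low counts. The count includes CXCL14 and CX3CL1, on which the set was chosen, and IL1A and IL1B, which passed the filter only through the e1 libraries and so could only be found higher. It is therefore a description. After SOX2 knockout, which chose the set, the log2 fold changes of IL8, IL1A and IL1B were positive and those of CXCL14, CX3CL1 and CXCL1 negative, each over 1.5-fold, and no test of them is given. Over all 13978 genes tested there, 29.7% were called, 16.3% higher and 13.5% lower. RNA of whole cultures was measured, so fewer expressing cells and less RNA per cell cannot be told apart.

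CXCL14 (ENSG00000145824, chr5:134906369-134914969 in GRCh37, minus strand), a chemokine of resting epithelia, had the largest fall of the set. It showed 2783 and 2539 TPM in the CRISPRi controls, compared with 58.6 and 64.6 TPM in e1 libraries. Every e1 library lay far under both controls, and the 2 guides gave nearly equal levels. The fitted log2 fold change was -5.41 (SE 0.07), so that the level fell by 97.7%. In the knockout experiment it stood at 911 and 902 TPM in the controls, compared with 80.7, 72.1 and 71.4 TPM with SOX2 guides 2, 3 and 4. All 3 pools were again far under both controls, including the pool of guide 4 in which SOX2 RNA was highest at 221 TPM. That RNA level does not give the level of intact SOX2, which was not measured in these libraries. Fitted over these 5 libraries, it was -3.39 (SE 0.09), and the level dropped by 90.5%. The starting level was 2661 TPM in one experiment and 907 TPM in the other, while the end levels were 61.6 ± 4.24 TPM (SD, n = 2) and 74.7 ± 5.17 TPM (SD, n = 3). The 2 changes have separate control libraries, and their difference was not tested.

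CX3CL1 (ENSG00000006210, chr16:57406389-57418956, plus strand), the membrane chemokine fractalkine, was lower in both settings as well. Its controls stood at 26.5 and 27.8 TPM and the e1 libraries at 11.4 and 12 TPM, with no overlap. The log2 fold change was -1.25 (SE 0.09), and the level decreased by 58%. After SOX2 knockout it stood at 4.68, 4.52 and 5.86 TPM against 40.7 and 40.5 TPM. These 3 pools lay close together and well under both controls. With a log2 fold change of -2.77 (SE 0.11), the level dropped by 85.4%. Expected counts of CX3CL1 were not whole in 7 of 17 libraries, which marks reads shared with other genes, and their largest distance from a whole count was 0.29. CXCL14, IL8, CCL20, IL1A and IL1B had whole counts in all 17 libraries.

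CXCL16 (ENSG00000161921, chr17:4636828-4643223, minus strand), the other membrane chemokine and the ligand of CXCR6, changed less. It showed 20.4 and 18.8 TPM in the CRISPRi controls, compared with 10.6 and 13.9 TPM with e1 guides. Both e1 libraries were under both controls. Its log2 fold change was -0.73 (SE 0.13), with adjusted p = 0.000245 in edgeR's quasi-likelihood fit, and the call was lost when mitochondrially encoded genes set the scale (-0.36, adjusted p = 0.0538), the only loss over 15 alternatives. With SOX2 guides it stood at 19.6, 15 and 17.7 TPM against 23 and 24.5 TPM, all 3 pools under both controls, with a log2 fold change of -0.31 (SE 0.13). Neither sheddase, ADAM10 nor ADAM17, was called in either comparison with TMM, and 1 of them was called higher after e1 repression with mitochondrially encoded genes as the scale.

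The 4 neutrophil attractants lie near each other on chromosome 4. CXCL1 spans chr4:74735110-74737025 (plus strand), CXCL2 chr4:74962757-74964913 (minus strand), CXCL3 chr4:74902306-74904524 (minus strand) and IL8 chr4:74606236-74609433 (plus strand), all in GRCh37. The sequences upstream of the first 3 are near copies. Over the 250 bases before the RefSeq start site, a global alignment with gaps gave CXCL1 84% identity with CXCL3 and 78.8% with CXCL2. With IL8 it gave 50%, a value that gaps can raise and that was not set against unrelated promoters. RefSeq promoter sequences were searched on both strands for the NF-kB (kappaB) letters GGAATTTCC, which, like the other motifs named in the text, were chosen after the sequences had been seen. They occur in 0.413% of 35116 promoter windows of 250 bases, and among the 8 members with a sequence in that table only in these 4. The 30 bases around each match are shown 5′ to 3′ on the strand of the gene, with the matched letters in capitals, because these 4 genes share them and yet differed in level and in response.
CXCL1, chr4:74735022-74735051, plus strand: tggaactccgGGAATTTCCctggcccgggg
CXCL2, chr4:74964970-74964999, minus strand: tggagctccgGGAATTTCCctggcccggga
CXCL3, chr4:74904465-74904494, minus strand: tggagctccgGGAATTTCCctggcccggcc
IL8, chr4:74606185-74606214, plus strand: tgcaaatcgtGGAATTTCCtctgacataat
The windows of CXCL1, CXCL2 and CXCL3 begin 87 or 88 bases before the RefSeq start site and that of IL8 101 bases before it. The RefSeq start sites of CXCL3, IL8 and CXCL14 lie inside the GENCODE spans printed here, which reach further upstream, so that the windows of CXCL3 and CXCL14 overlap those spans. A match is a description of letters and not a measured binding site.

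CXCL1 (ENSG00000163739), a ligand of CXCR2, showed 224 and 232 TPM in the CRISPRi controls, compared with 195 and 138 TPM with e1 guides 1 and 2. Both e1 libraries were under both controls, but they differed from each other by more than the controls did. The log2 fold change was -0.41 (SE 0.11; edgeR quasi-likelihood adjusted p = 0.006), under the required fold, so it was not called. Without the sg-e1#1 library it was -0.67 and called. After SOX2 knockout it stood at 216, 215 and 216 TPM against 455 and 422 TPM, with the pools close together and under both controls. The log2 fold change was -0.81 (SE 0.08).

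CXCL3 (ENSG00000163734) was low throughout, at 4.65 and 3.35 TPM in the CRISPRi controls against 3.29 and 1.98 TPM with e1 guides. Its log2 fold change of -0.30 (SE 0.42; edgeR quasi-likelihood adjusted p = 0.604) was smaller than its error and changed sign, to 0.08, with mitochondrially encoded genes as the scale and, to 0.04, without the sg-e1#2 library. It stood at 8.87 and 4.57 TPM in the CRISPR controls, compared with 3.79, 2.65 and 4.14 TPM with SOX2 guides (log2 fold change -0.43, SE 0.33). CXCL2 (ENSG00000081041) gave 10 counts over the e1 libraries and 7 over their controls, and 7 counts over the knockout pools and 10 over their controls. No difference in CXCL2 was detectable at this depth.

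IL8 (ENSG00000169429), a potent neutrophil attractant, went the other way. It showed 1.1 and 1.16 TPM in the CRISPRi controls, compared with 14.8 and 6.9 TPM with e1 guides 1 and 2. Both e1 libraries were well over the controls, though the guides differed by more than the controls did. The log2 fold change was 3.14 (SE 0.37; edgeR quasi-likelihood adjusted p = 4.44e-06), 8.82-fold. In the knockout experiment the controls already stood at 13 and 12.4 TPM, and the 3 pools at 24.8, 23 and 24.9 TPM. All pools were over both controls, with a log2 fold change of 1.04 (SE 0.13). The CRISPR controls thus lay in the range of the e1 libraries rather than in that of the CRISPRi controls.

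IL1A (ENSG00000115008, chr2:113531502-113542070, minus strand), the alarmin form of interleukin 1, showed 0.53 and 0.45 TPM in the CRISPRi controls, compared with 21.7 and 16.7 TPM with e1 guides. The e1 libraries held 269 and 225 counts against 8 and 7. Both guides gave a similar level, far over the controls. On the log2 scale the fitted difference was 5.29 (SE 0.26), 39-fold. The control counts lay under the filter, so that IL1A was tested only because it was high with e1 guides, and no p is given. SOX2 knockout pools stood at 28.4, 33.2 and 28.6 TPM against 0.7 and 1.22 TPM, again without overlap, with a log2 fold change of 5.19 (SE 0.21).

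IL1B (ENSG00000125538, chr2:113587328-113594393, minus strand), the secreted form processed by caspase 1, stood at 15.5 and 10.7 TPM with e1 guides. Its CRISPRi controls stood at 0.34 and 0 TPM. With 247 counts over the e1 libraries and 1 over the controls, the ratio scaled to library size was 288 (95% interval 51.3 to 11400, counting error only). IL1B too passed the filter only through the e1 libraries, and no p is given. In the knockout experiment IL1B stood at 12.4, 8.39 and 13.9 TPM against 1.05 and 2.07 TPM, with all pools over both controls and a log2 fold change of 3.36 (SE 0.31). The end levels of IL1A and IL1B were 19.2 ± 3.54 and 13.1 ± 3.36 TPM with e1 guides (SD, n = 2) and 30.1 ± 2.71 and 11.6 ± 2.85 TPM with SOX2 guides (SD, n = 3).

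Leukocytes also make interleukin 1 and IL8, so their markers were read beside these values. Of 8 leukocyte markers, CD68 and CSF1R passed the filter and both were called higher in both comparisons. After e1 repression both passed through the e1 libraries alone, and after knockout 1 of the 2 passed through the pools alone. The summed level of the 8 ran from 1.97 to 2 TPM in the CRISPRi controls and from 29 to 30.7 TPM with e1 guides, and from 4.76 to 5.6 TPM in the CRISPR controls and 56.4 to 73.1 TPM with SOX2 guides. CD68, which many cell types express in lysosomes, accounted for most of it, at 24.4 and 25.8 TPM with e1 guides and 53.8 to 70.2 TPM with SOX2 guides. PTPRC, the pan-leukocyte marker, did not exceed 0.23 TPM in any KYSE140 library. CD3E and MS4A1, markers of T and B cells, were at 0 in all 9 libraries of these experiments. COL1A1 was the only one of 5 fibroblast markers to pass the filter, and it was called higher in both comparisons too. The part of CD68, CSF1R or COL1A1 in the results for IL1A, IL1B and IL8 was not tested.

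CCL20 (ENSG00000115009, chr2:228670455-228682280, plus strand), the ligand of CCR6, stayed near the limit of measurement. It held 4 counts with e1 guides against 1 in the controls, and 16 counts in the knockout pools against 3. The ratios scaled to library size were 4.67 (95% interval 0.462 to 230) and 2.87 (0.82 to 15.3), for counting error only. Both intervals include no difference. The pool of SOX2 guide 2 stood highest at 2.35 TPM, and the groups overlapped.

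**Figure D2:**
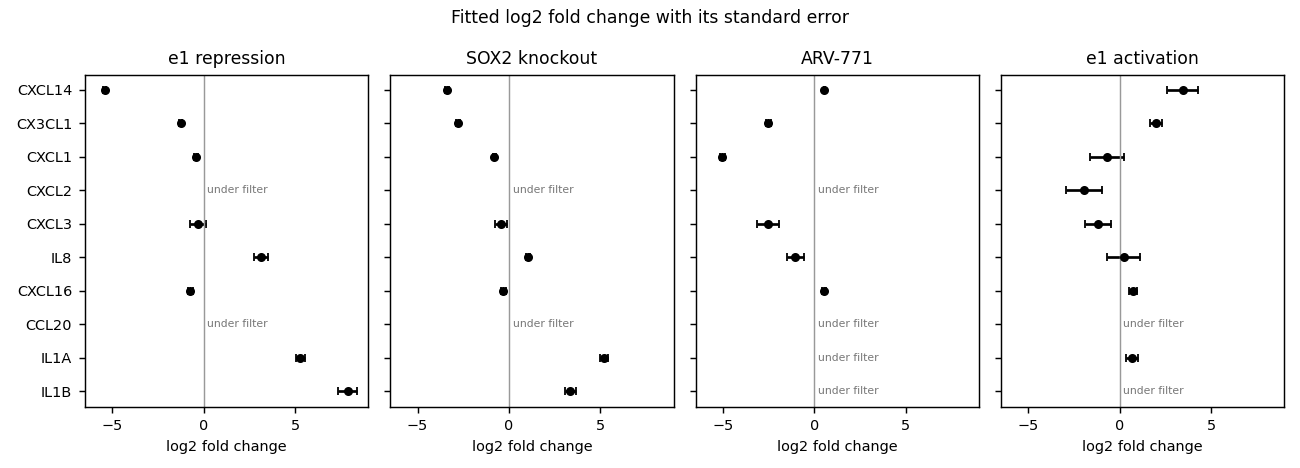
Fitted log2 fold change (x) of the 10 genes (y) in 4 comparisons, with points for the estimates, bars for 1 SE to each side, and genes under the filter on low counts marked as such. IL1A lies at 5.29 and 5.19 and CXCL14 at -5.41 and -3.39 for e1 repression and SOX2 knockout, and CXCL1 lies at -5.05 with ARV-771.

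Among 8 members with RefSeq promoter sequence, CXCL14, IL8 and IL1A held the AP-1 letters TGANTCA, searched on both strands, within 250 bases upstream of a RefSeq start site, and 6.57% of all windows held them. The 30 bases with the match are shown for CXCL14 and IL1A, the member with the largest fall and the interleukin 1 gene with the higher level after SOX2 loss, again on the strand of the gene with the matched letters in capitals.
CXCL14, chr5:134914754-134914783, minus strand: gaaatctcagTGAGTCAccgagtggttctg
IL1A, chr2:113542071-113542100, minus strand: acaaaaggcgaagaagacTGACTCAggctt
Of the 8, IL1B alone held the SOX letters ACAATG (9.29% of all windows did), from 242 to 237 bases before its start site. IL8, CCL20 and IL1A held the TATA letters TATAAA, as 10.7% of all windows did. These lay from 31 to 26 bases before the start site for IL8, 29 to 24 for CCL20 and 239 to 234 for IL1A. CX3CL1 and CXCL16 were the members without a sequence in the table.

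Genes that act with the members were described from lists. Of 10 listed relatives in the interleukin 1 family, 6 passed the filter after e1 repression, 5 of them only through the e1 libraries. These 5 were called higher, a direction set by the filter, and the relative measured in both groups was not called. IL1RN, the receptor antagonist of IL1A and IL1B, stood at 0.83 ± 0.57 TPM in the controls and 11.1 ± 1.32 TPM with e1 guides (SD, n = 2 each). IL18, a relative also matured by caspase 1, stood at 0.31 ± 0.13 and 7.3 ± 1.17 TPM (SD, n = 2 each). In the knockout pools 6 passed the filter, 4 of them only through the pools, and 1 of the other 2 was called higher. IL1RN stood at 178.5 ± 41.1 TPM there (SD, n = 3) against 1.05 ± 0.12 TPM (SD, n = 2), a higher level than that of IL1A or IL1B.

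Further along the pathway, 15 genes for interleukin 1 receptors and signalling were tested after e1 repression, of which 4 were called higher, 2 lower and 9 not called, with a median log2 fold change of 0.08 against -0.002 over all genes (2 to 6 were higher and 1 or 2 lower under the 4 scalings tried). The kinase IRAK1 was higher (log2 fold change 0.61, SE 0.05), while IRAK4 (-0.65, SE 0.10) and the inhibitory receptor SIGIRR (-1.39, SE 0.17) were lower. One of those called higher passed the filter only through the e1 libraries. IL1RL1, the receptor of IL33, was listed at 0 in both controls and at 3.96 ± 1.12 TPM (SD, n = 2) with e1 guides. In the knockout pools 7 of 16 were higher and 2, again IRAK4 and SIGIRR, were lower, and the adaptor MYD88 was higher (1.59, SE 0.15). Of these 7, 3 passed the filter only through the pools. Among the 13 measured in both groups 4 were higher and 2 lower, against 13.6% and 13.4% of all genes so measured. Under the 4 scalings 5 to 7 of the 16 were higher.

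Of 16 genes for NF-kB subunits, kinases and inhibitors, 6 were called higher after e1 repression (median 0.52) and 8 after knockout (median 0.57), and none lower except 1 after knockout when only library size set the scale. They included TNFAIP3, a deubiquitinase that restrains NF-kB (3.49, SE 0.13, with e1 guides and 2.76, SE 0.11, with SOX2 guides), and RELB (2.29, SE 0.13, with e1 guides). All 16 were measured in both groups of both comparisons, where 7.98% of genes so measured were called higher after e1 repression and 13.6% after knockout. Of 14 other NF-kB target genes listed, 9 passed the filter with e1 guides, 4 of them only through the e1 libraries. Of the 5 measured in both groups, 2 were called higher and none lower. BIRC3 (3.93, SE 0.24) and PTGS2, the gene of cyclooxygenase 2 (3.51, SE 0.24), were among those called. With SOX2 guides 12 passed, 6 of them only through the pools, and 5 of the other 6 were called higher. Over the 4 scalings tried, 6 to 11 of the 16 NF-kB genes were called higher after e1 repression and 7 or 8 after knockout. Mitochondrially encoded genes as the scale moved the median log2 fold change of genes averaging 50 counts or more to 0.376 after e1 repression and to -0.112 after knockout, where library size alone moved it to -0.208. CXCL1 and CXCL3, which carry the same kappaB letters as IL8, were not among the genes called higher.

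Few other chemokine genes were expressed. Of 29 listed, 4 were tested in each of these comparisons, and CCL5 and CCL26 were called higher and CXCL13 lower in both, although only 1 of the 4 was measured above the filter in both groups. CCL26, an eosinophil attractant, rose from 15 ± 2.89 to 57.7 ± 4.74 TPM with e1 guides (SD, n = 2 each; log2 fold change 1.97, SE 0.21, edgeR quasi-likelihood adjusted p = 2.07e-06). CXCR4, the receptor of CXCL12, was the only one of 23 chemokine receptor genes to pass the filter after e1 repression, which it did through the controls alone, and stood at 20.4 ± 1.64 TPM in the controls and 1 ± 0.67 TPM with e1 guides (SD, n = 2 each; log2 fold change -4.31, SE 0.27). With SOX2 guides its log2 fold change was -3.42 (SE 0.38). There 3 receptor genes were tested, and ACKR2 and CXCR1 were called higher, having passed the filter only through the pools. CXCR1 stood at a mean of 0.82 TPM in the pools and 0 in their controls. CX3CR1, CXCR6, CCR6 and CXCR2, the receptors of CX3CL1, CXCL16, CCL20 and the neutrophil attractants, did not pass the filter after e1 repression.

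ARV-771 asked which genes depend on BET proteins over 6 h. Of 6 members tested, 4 were called, all lower (CX3CL1, CXCL1, CXCL3 and IL8), of which CXCL3 and IL8 passed the filter only through the DMSO cultures and could only be found lower. Of 13500 genes 52.9% were called, 21.2% higher and 31.7% lower. The shift in scale was large: among genes averaging 50 counts or more the median log2 fold change was 0.009 with TMM, -0.451 by library size alone and -1.07 with mitochondrially encoded genes as the scale. CXCL1 had the largest change. It stood at 138 and 132 TPM in DMSO and at 3.24 and 2.11 TPM with ARV-771, with no overlap, and its log2 fold change was -5.05 (SE 0.14; edgeR quasi-likelihood adjusted p = 1.85e-19), 33.1-fold lower. Over 15 alternatives the fall of CXCL1 ran from -6.12 to -4.88.

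CX3CL1 stood at 15.5 and 18 TPM in DMSO and at 1.96 and 1.65 TPM with ARV-771. Both treated cultures were well under both DMSO cultures. The log2 fold change was -2.53 (SE 0.14; edgeR quasi-likelihood adjusted p = 4.49e-14). CXCL3 stood at 2.64 and 3.36 TPM in DMSO and at 0.26 and 0.17 TPM with ARV-771, a log2 fold change of -2.53 (SE 0.59) that rests on 47 and 6 counts. CXCL2 held 13 counts in DMSO and none with ARV-771, at least 2.27-fold lower when 3 counts in each treated library are taken as the floor. In TPM the 3 near copies CXCL1, CXCL2 and CXCL3 were lower in both treated cultures than in both DMSO cultures. Of these only CXCL1 was measured above the filter in both groups. CXCL2 was not tested, and CXCL3 passed the filter through DMSO alone and could only be found lower.

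IL8 stood at 2.48 and 1.53 TPM in DMSO and at 1 and 0.55 TPM with ARV-771, with both treated cultures under both DMSO cultures. Its log2 fold change was -1.04 (SE 0.47). Since IL8 passed the filter only through the DMSO cultures, no p is given. The call was marginal and was lost in 12 of 14 alternatives. Leaving out any 1 of the 4 libraries ended it. IL1A held 6 counts in DMSO and 1 with ARV-771, IL1B 1 and 0, and CCL20 3 and 3, so none was tested and no difference was detectable at this depth. Neither IL1A nor IL1B exceeded 0.31 TPM in these 4 libraries. SOX2 RNA in the treated cultures was lower than in any e1 or SOX2 guide library, though after 6 h and not after days of selection. The link of SOX2 to these levels was not tested.

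Over the 6 h of ARV-771 CXCL14 showed no fall like that of SOX2 RNA. The guide pools were under selection for days, so the times differ. The stability of CXCL14 RNA was not measured. It stood at 3643 and 3748 TPM in DMSO and at 3289 and 3203 TPM with ARV-771. The treated cultures were slightly under the DMSO cultures in TPM. With TMM the log2 fold change was 0.54 (SE 0.04; edgeR quasi-likelihood adjusted p = 6.48e-12), under the required fold, and it was 0.08 by library size, -0.19 on log2(TPM + 1) and -0.54 with mitochondrially encoded genes as the scale. The direction thus depended on the scale. Over 15 alternatives it ran from -0.54 to 0.61, and the rule for calls was met in none. CXCL16 behaved alike, at 25.4 and 24.6 TPM in DMSO and 18.9 and 16.5 TPM with ARV-771, with a log2 fold change of 0.54 (SE 0.11) with TMM, -0.48 on log2(TPM + 1) and -0.53 with mitochondrially encoded genes as the scale. It was called higher in 4 of 15 alternatives, with RLE factors (0.59), with DESeq2 (0.60), with all libraries in one fit (0.63) and without treated culture B (0.69).

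Among genes of the pathway, 7 of 16 for NF-kB subunits, kinases and inhibitors were called lower with ARV-771 and none higher (median -0.51, against -0.044 over all genes), while 31.7% of all genes tested were called lower, and 7 to 16 of the 16 were lower under the 4 scalings tried. Of these 16, 2 passed the filter only through the DMSO cultures. NFKBIA, the inhibitor that is itself an NF-kB target, fell from 118 ± 4.75 to 31.7 ± 7.08 TPM (SD, n = 2 each; log2 fold change -1.42, SE 0.07, edgeR quasi-likelihood adjusted p = 1.31e-14), and REL from 2.7 ± 0.18 to 0.14 ± 0.05 TPM (SD, n = 2 each). Of 4 other NF-kB targets tested, 1 of them through the DMSO cultures alone, 3 were called lower, including BIRC2 (-1.10, SE 0.11) and TNFAIP2 (-0.73, SE 0.10). Of 13 interleukin 1 receptor and signalling genes, 4 were called lower and 1 higher (median -0.21), a share lower that is close to that of all genes, and 4 to 9 were lower and 1 or none higher under the 4 scalings. CXCR4 (-3.50, SE 0.27) and the scavenger receptor ACKR3 (-2.29, SE 0.40) were the 2 receptor genes tested, both lower and both measured above the filter in DMSO alone. In contrast XCL1 (1.42, SE 0.38) and CXCL13 (1.13, SE 0.41) were among 3 of 4 other chemokine genes called higher with TMM, while by library size 1 was higher and with mitochondrially encoded genes as the scale none.

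**Figure D3:**
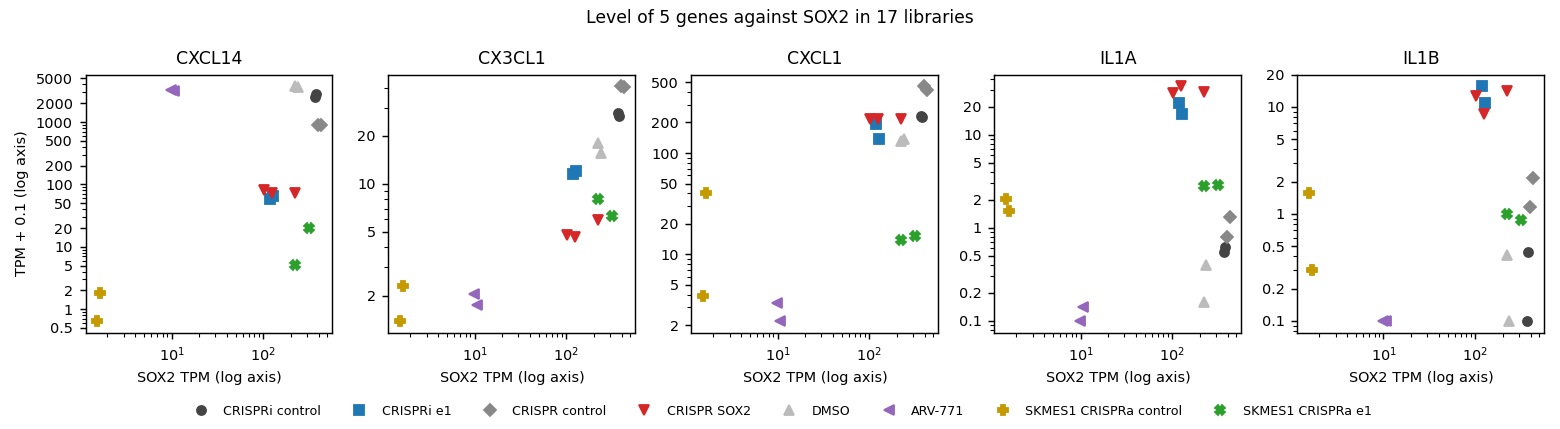
TPM plus 0.1 of 5 genes (y, log axis) against SOX2 TPM (x, log axis) in the 17 libraries, with marker shape and color for the 8 groups. The ARV-771 libraries, at 9.8 and 10.5 TPM of SOX2, sit with their DMSO controls among the highest CXCL14 levels. Both groups hold 0.31 TPM or less of IL1A and of IL1B. The e1 and SOX2 guide libraries of KYSE140 hold less CXCL14 and more IL1A and IL1B than these.

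Activation of e1 in SKMES1 asked whether the enhancer suffices to raise SOX2 and which genes follow. No member was called among 8 tested by the edgeR quasi-likelihood test. Few genes were called at all, 0.188% of 14859, with 0.168% higher and 0.0202% lower. At an unadjusted p under 0.05 there were 3 of the 8 members, CXCL14, CX3CL1 and CXCL16, all higher, and 2109 of the 14859 genes. CXCL14 passed the filter only through the e1 libraries and so could only be found higher. By the exact test of edgeR 2 members were called and by DESeq2 2, in both cases CXCL14 and CX3CL1, and by limma on TPM none.

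CXCL14 stood at 1.75 and 0.55 TPM in the SKMES1 controls (19 and 7 counts) and at 4.97 and 20 TPM with e1 guides 1 and 3 (46 and 320 counts). Both e1 libraries were over both controls, but guide 3 gave the higher level by far. It passed the filter only through the e1 libraries, so no p is given. Its log2 fold change was 3.44 (SE 0.84), it was not called, and its level stayed far under that of KYSE140. CX3CL1 stood at 2.19 and 1.29 TPM in the controls, compared with 7.97 and 6.23 TPM with e1 guides. Here the guides gave similar levels, both over both controls, with a log2 fold change of 1.97 (SE 0.31; edgeR quasi-likelihood adjusted p = 0.118). CXCL16 stood at 17.4 and 12.5 TPM in the controls, compared with 32.4 and 26.3 TPM with e1 guides (log2 fold change 0.71, SE 0.21, edgeR quasi-likelihood adjusted p = 0.251).

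The neutrophil attractants were set by the 2 control libraries, which lay far apart. CXCL1 stood at 40.5 TPM in sg-NC#1 and 3.77 TPM in sg-NC#2, IL8 at 47.1 and 4.44 TPM and CXCL2 at 11.8 and 1.2 TPM. The e1 libraries, at 13.9 and 15.1 TPM of CXCL1, 34.3 and 27.6 TPM of IL8 and 1.49 and 1.53 TPM of CXCL2, fell between or near them. Fitted log2 fold changes were -0.71 (SE 0.94) for CXCL1, 0.21 (SE 0.90) for IL8, -1.94 (SE 0.98) for CXCL2 and -1.19 (SE 0.69) for CXCL3. Without sg-NC#1, IL8 (2.72) and CXCL1 (1.85) were called higher and 5 members were called in all. Without sg-NC#2, CXCL1 (-1.60) and CXCL2 (-2.80) were called lower and 3 members were called. These fits assume that the lone control varies like the e1 libraries. The sign of CXCL1 was also positive on log2(TPM + 1), at 0.14, and that of IL8 negative with mitochondrially encoded genes as the scale, at -0.23.

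IL1A was low in SKMES1, at 1.41 and 1.96 TPM in the controls and 2.7 and 2.82 TPM with e1 guides, with both e1 libraries over both controls. Its log2 fold change was 0.66 (SE 0.32; edgeR quasi-likelihood adjusted p = 0.428). IL1B gave 2 and 14 counts in sg-NC#1 and sg-NC#2 and 2 and 3 counts with e1 guides, so the groups overlapped, and CCL20 gave 12 counts in the controls and 11 with e1 guides. Over the chemokine, receptor, interleukin 1 and NF-kB lists the median log2 fold change lay between -0.48 (3 chemokine receptors) and 0.33 (7 other chemokine ligands). The summed leukocyte marker level was 71.4 and 138 TPM in the controls and 42.9 to 51.9 TPM with e1 guides, again mostly CD68, with PTPRC at or under 0.55 TPM.

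The CRISPRa controls of SKMES1 were also set beside the CRISPRi controls of KYSE140. These controls are the same libraries as in the e1 comparisons above, and the line, the dCas9 construct and the experiment cannot be told apart. Of 7 members tested, 5 were called, IL8 and IL1A higher and CXCL14, CX3CL1 and CXCL1 lower in SKMES1, where 55.6% of 15100 genes were called, 30.4% higher and 25.2% lower. CXCL14 differed most, at 1.15 ± 0.85 TPM in SKMES1 and 2661 ± 172 TPM in KYSE140 (SD, n = 2 each), a log2 fold change of -11.33 (SE 0.41). CXCL14 passed the filter through the KYSE140 controls alone and IL1A through the SKMES1 controls alone, and no p is given for either. The log2 fold change of CX3CL1 was -4.09 (SE 0.22; edgeR quasi-likelihood adjusted p = 6.72e-05). For CXCL1 it was -3.40 (SE 0.82; edgeR quasi-likelihood adjusted p = 0.0126), for IL8 4.34 (SE 1.21; adjusted p = 0.0215) and for IL1A 1.65 (SE 0.41). The other KYSE140 controls were not used here. IL8 stood at 13 and 12.4 TPM in the CRISPR controls, between the SKMES1 controls at 4.44 and 47.1 TPM. In DMSO it stood at 2.48 and 1.53 TPM, under both SKMES1 controls. The position of IL8 in SKMES1 thus depended on which KYSE140 controls were taken. The sizes also rested on which SKMES1 control was used. Without sg-NC#1 they were 1.84 for IL8, -5.94 for CXCL1 and -12.35 for CXCL14, and CXCL16 (-0.77) was called lower as well. Without sg-NC#2 they were 5.23, -2.48 and -10.65, and the call of IL1A (1.42) was lost. Without either KYSE140 control library only CXCL14 and CX3CL1 were called.

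Ordered by mean TPM over the 8 groups, CXCL14 ran from DMSO at the top through ARV-771, the CRISPRi controls, the CRISPR controls, SOX2 guides, e1 guides and e1 activation to the SKMES1 controls, and no 2 neighbouring groups overlapped. CX3CL1 ran from the CRISPR controls through the CRISPRi controls, DMSO, e1 guides, e1 activation and SOX2 guides to ARV-771 and the SKMES1 controls, of which only the last pair overlapped. IL1A ran from SOX2 guides and e1 guides through both SKMES1 groups to the CRISPR controls, the CRISPRi controls, DMSO and ARV-771. Neighbours did not overlap in TPM. Yet IL1A held 5 and 1 counts in DMSO and 0 and 1 with ARV-771, so the order of this last pair was not measurable. For IL1B the e1 and SOX2 guide libraries overlapped each other and stood over the CRISPR controls, and the 5 groups with less IL1B overlapped their neighbours.

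The genes most like CXCL14 over the 13 KYSE140 libraries, by Pearson's r of log2(TPM + 1) among 13985 genes averaging 1 TPM or more, were GALNT1 (r = 0.992), which starts O-linked glycosylation, ASAH1 (0.988), the lysosomal acid ceramidase, and DAPL1 (0.986). Their levels ran from 37.1 to 231 TPM, from 22.4 to 73.2 TPM and from 0.47 to 52.9 TPM. For CX3CL1 they were the long noncoding RNA CCAT1 (0.991), the tubulin pseudogene TUBA3FP (0.989) and the phospholipase gene DDHD1 (0.985). These values describe 13 libraries in 6 groups that share treatments, so the libraries are not independent points.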

How the data were processed

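Poly-A RNA of 17 libraries was sequenced. The authors prepared directional libraries, used Bowtie2 on hg19 for alignment and RSEM for quantification over GENCODE genes, per the labels and methods (tool versions and strand setting are not given in the sources used here). The deposited tables hold, per library, RSEM expected counts, which are estimated counts not normalized between libraries. The authors' RSEM runs also gave TPM and FPKM in the same deposited tables, of which FPKM was not used here.

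The 10 members, the gene lists and the motifs were chosen with earlier results of these data known. Groups came from the sample labels, and replicates are different guides or, for ARV-771 and DMSO, cultures A and B. P-values therefore measure the spread between these libraries, which may be technical in part. All replicate pairs differed by more than sampling noise.

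Expected counts were rounded and tested over all genes with edgeR 4.0.16 in R 4.3.3 (two-sided quasi-likelihood test, TMM, filterByExpr with minimum count 10 and total 15, only the groups compared, Benjamini-Hochberg adjustment over all genes tested). Each SE is the ratio of the log2 fold change to the root of F. Alternatives were the edgeR exact test, DESeq2 1.42.0, limma 3.58.1 on log2 TPM with a pseudocount of 1 or 0.1 (genes averaging 1 TPM or more), 3 other scalings, 2 other count filters, 2 other fold limits, all libraries in one fit, a block for replicate number and omission of each library in turn. Counts of list genes under the other scalings, and which group let a gene pass the filter, were added after seeing the data. The tests were run on simulated data first. Named genes were all members, SOX2, in each list at most the 2 called genes with the smallest p in each direction, and the 3 genes most like CXCL14 and CX3CL1, while ADAM10, ADAM17, the receptors of members and cell type markers are named as list members. PECAM1 was not analysed here. Intervals and the floor of 3 counts cover counting error only. Coordinates are GENCODE 44 mapped to GRCh37, and promoter letters come from RefSeq, placed on GRCh37 by exact match.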

Additional observations from a re-analysis of the deposited data

How the results depend on the processing

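Calls of members were recomputed under each alternative, SOX2 knockout included, where they describe values and test nothing. The count of members called moved by over 1.5 times in 10 of 84 recomputations and in 3 of the 5 comparisons. With ARV-771 it was 2 in place of 4 when a mean of at least 50 counts was required, since fewer members were then tested. In e1 activation it was 2 in place of 0 with mitochondrially encoded genes as the scale, 2 with the edgeR exact test, 2 with DESeq2, 3 with all libraries in one fit and 4 without a filter on low counts, and it ran from 0 to 5 when single libraries were left out. In the comparison of the lines it ran from 2 to 7 when single libraries were left out, against 5. The causes of these moves, other than fewer genes or libraries, were not tested.

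Among recomputed fold changes of members, 471 kept their direction and their side of the threshold, 26 passed it newly, 25 no longer passed it and 16 changed sign. Changes of sign on another scale were CXCL3 after e1 repression (0.083 with mitochondrially encoded genes as the scale), CXCL14 and CXCL16 with ARV-771 (-0.54 and -0.53 on that scale, -0.19 and -0.48 on log2(TPM + 1), -0.19 and -0.50 on log2(TPM + 0.1)), IL8 in e1 activation (-0.23 on the mitochondrial scale), CXCL1 there (0.14 and 0.22 on log2(TPM + 1) and log2(TPM + 0.1)) and CXCL3 between the lines (0.38 on the mitochondrial scale). When single libraries were left out, CXCL3 ran from -0.70 to 0.038 after e1 repression and from -1.09 to 0.52 between the lines, and in e1 activation CXCL1 ran from -1.60 to 1.85, CXCL2 from -2.80 to 0.30 and IL8 from -0.67 to 2.72.

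Replicate numbers shared by the compared groups do not pair the libraries, whose deviations correlated by 0.016 for e1 repression, -0.026 for ARV-771 and 0.029 between the lines. With the number as a replicate block 6, 3 and 5 members were called, and only the call of IL8 with ARV-771 was lost (log2 fold change -1.02). SOX2 knockout and e1 activation shared fewer than 2 numbers, so they had no such fit. In KYSE140, where CXCL2 and CCL20 held few counts in every library, small differences in these genes were not measurable. Mitochondrially encoded genes as the scale moved the median over genes averaging 50 counts or more to -0.336 in e1 activation and to 0.455 between the lines.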
